A study of Mus musculus with 90 samples.

Results

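The genes described here encode the proteins of the cytosolic ribosome. They were chosen by symbol alone: every gene of the count table named Rpl, Rps or Rplp with a number and at most a short letter suffix was taken, without the Rps6k kinases and without 6 rows with pseudogene names. This gave 83 of the 23420 genes in the table. They comprise 30 proteins of the small (40S) subunit, 43 of the large (60S) subunit, the 3 proteins of the stalk (Rplp0, Rplp1 and Rplp2) and 7 paralogues (Rpl3l, Rpl7l1, Rpl10l, Rpl22l1, Rpl39l, Rps27l and the row listed as Rps4y2). The rule uses no measured value. All 83 had a count in at least 1 library, and 80 passed the low-count filter in the Treg series and 82 in the CD8 series.

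As background, the small subunit decodes the messenger RNA, the large subunit joins the amino acids, and the acidic stalk recruits the elongation factors. The messenger RNAs of these proteins are among the most abundant of a cell and mostly begin with a C followed by a run of pyrimidines at the cap, the 5′ terminal oligopyrimidine (TOP) tract, through which mTORC1 and Larp1 control their translation and stability. Ribosome building is costly, is driven by Myc and mTORC1, and is known to rise when a resting T cell is activated and prepares to divide.

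The TOP tract is the best known sequence feature of these genes, so the annotated start was read from RefSeq promoters of build GRCm38.p6, in which 62 of the 83 members were found by symbol. The rule sought a C within 10 bases of the annotated start, followed by at least 4 pyrimidines. That C could itself follow pyrimidines further upstream. Such a run was present in 39 of them (62.9%), and in 34.4% of the promoters of 27025 genes. In the 300 bases from 250 before to 50 after the start, the letters CCGGAAG, on either strand, occurred in 40.3% of the members and in 9.93% of all genes. AAGATGG occurred in 16.1% against 7.28%, CACGTG, the E-box that Myc can bind, in 9.68% against 8.09%, and TATAAA in 11.3% against 15.7%. A match describes these letters only and is no evidence of binding. Windows of 30 bases, 15 before the annotated start and 15 from it, are printed 5′ to 3′ on the gene's strand as examples with and without a run, for members described below and 4 paralogues. They were chosen after the sequences were seen. Capitals mark the pyrimidine run from the first C that met the rule. Pyrimidines further upstream stay in small letters.
Rps6, chr4:86857353-86857382, minus strand: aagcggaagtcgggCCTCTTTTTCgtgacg
Rps18, chr17:33955651-33955680, minus strand: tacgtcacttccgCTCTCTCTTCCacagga
Rps24, chr14:24490663-24490692, plus strand: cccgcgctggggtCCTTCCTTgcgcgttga
Rpl12, chr2:32961697-32961726, plus strand: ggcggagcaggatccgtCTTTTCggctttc
Rplp2, chr7:141447636-141447665, plus strand: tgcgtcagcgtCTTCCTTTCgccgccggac
Rps7, chr12:28635939-28635968, minus strand: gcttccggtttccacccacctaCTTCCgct
Rpl10a, chr17:28328456-28328485, plus strand: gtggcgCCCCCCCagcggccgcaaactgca
Rps19, chr7:24884577-24884606, plus strand: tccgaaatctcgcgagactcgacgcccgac
Rplp0, chr5:115559452-115559481, plus strand: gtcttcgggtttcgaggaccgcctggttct
Rpl4, chr9:64173372-64173401, plus strand: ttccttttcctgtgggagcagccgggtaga
Rps27l, chr9:66946071-66946100, plus strand: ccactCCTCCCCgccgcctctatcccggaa
Rpl39l, chr16:10170213-10170242, plus strand: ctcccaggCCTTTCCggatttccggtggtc
Rpl22l1, chr3:28805493-28805522, plus strand: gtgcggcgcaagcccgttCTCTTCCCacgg
Rpl7l1, chr17:46782642-46782671, minus strand: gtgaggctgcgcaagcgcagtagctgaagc
In the Rps6, Rps18, Rps24, Rpl12 and Rplp2 windows the run sat at or next to the annotated start, while in Rps7 it began downstream and in Rpl10a upstream of it. No run met the rule at the Rplp0, Rpl4 or Rpl7l1 start, nor at the printed start of Rps19, whose windows held a run at 1 of 3 annotated starts. Rpl5 and Rpl11 had none either. In Rps27l the run lay upstream of the first annotated start, and its pyrimidines began further upstream than the capitals. The Rpl4 window also held a pyrimidine run, but it began more than 10 bases upstream of the start. The annotated start need not be the start used in these cells.

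The libraries are RNA sequencing of mouse T cells, 90 in 30 groups. The Treg series holds 30 libraries from mice labelled WT. It has regulatory T cells (Tregs) of the label DoubleNeg (DN below), of the label IL10 and of the label Ebi3, each from the source labelled NaiveTcell (naive), from a non-draining lymph node (node) and from tumour, and it has naive effector T cells (Teff). Each of the 10 groups has 3 libraries, and the labels place 1 in each of batches 1, 2 and 3. Ebi3 is a subunit of the cytokine IL-35, and the design text says that tumour Tregs were sorted on IL10 and IL35 expression. The CD8 series holds 60 libraries: CD8 T cells of the node (NDLN), and tumour CD8 T cells sorted on the inhibitory receptors PD-1 and TIM-3, which mark exhaustion. Cells without either receptor are called NEG below. Those without TIM-3 are called INT where PD-1 was intermediate and SP where it was high, and DP cells carried TIM-3 as well as high PD-1. Each population has 3 libraries of the genotype labelled yfp, 4 of DKO, 2 of Il10 and 3 of Ebi3L. The design text places the knockouts of IL10, of IL35 and of both in Tregs, so the CD8 T cells are described as coming from hosts with altered Tregs and not as knockouts themselves. The 12 sources of CD8 T cells are combinations of genotype and set name, each with 1 library of every population. Age, sex, tumour model and whether animals were pooled are not stated in the labels, and nothing says that libraries of a group came from separate animals. The p-values therefore measure the spread between these samples.

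Library totals ran from 9.73 to 20.2 M counts in the Treg series and from 19.2 to 47.7 M in the CD8 series, and between 79 and 82 members had a count in each library. Cd8a and Cd8b1 summed to 1428 to 4085 CPM (counts scaled to a common library total) in CD8 libraries and to 12.99 to 43.2 in the Treg series, and Cd4 was at 0 to 4.26 and at 198 to 546. Pax5, which defines B cells, was at 0 in every library of the Treg series, and Csf1r, which defines macrophages, was at 0 in the DN and IL10 Tregs of all 3 sites, while the whole lists of B cell and myeloid markers reached 102 and 205 CPM in that series. The share of all counts that fell in the family also moved with batch. It was 4.43 to 8.81% in the 35 CD8 libraries of batch 1, 5.38 to 10.24% in the 10 of batch 2 and 8.86 to 14.5% in the 15 of batch 3. In the Treg series it was 3.81 to 8.37% in batch 1, 2.52 to 5.04% in batch 2 and 2.59 to 5.87% in batch 3. Every test below therefore has batch as a term. In bulk libraries, fewer cells of a type and less RNA per cell cannot be told apart.

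Across the Treg series the family took 2.52 to 8.37% of a library, and the order of the groups was close to the same within each batch. In naive DN Tregs it took 8.14, 5.04 and 5.48% in batches 1, 2 and 3 (6.22% ± 1.68, SD, n = 3), in naive Teff 8.37, 4.60 and 5.44% (6.14% ± 1.98) and in node DN Tregs 7.78, 4.42 and 5.87% (6.03% ± 1.69). These 3 groups did not differ beyond their spread. Ebi3 Tregs lay lower, at 6.53, 3.81 and 4.003% in the naive source (4.78% ± 1.52) and 6.18, 3.77 and 4.59% in the node (4.85% ± 1.23). IL10 Tregs lay lower again, at 5.002, 2.52 and 3.28% (3.60% ± 1.27) and at 4.68, 3.12 and 3.23% (3.67% ± 0.868). In tumours the 3 kinds of Treg drew together. Tumour DN Tregs were at 4.54, 3.07 and 3.15% (3.59% ± 0.826), tumour Ebi3 Tregs at 4.78, 2.84 and 3.72% (3.78% ± 0.970) and tumour IL10 Tregs at 3.81, 2.55 and 2.59% (2.98% ± 0.713). At each of the 3 sites the IL10 library lay below the DN library in every batch, also where the ranges over batches overlap.

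**Figure D1:**
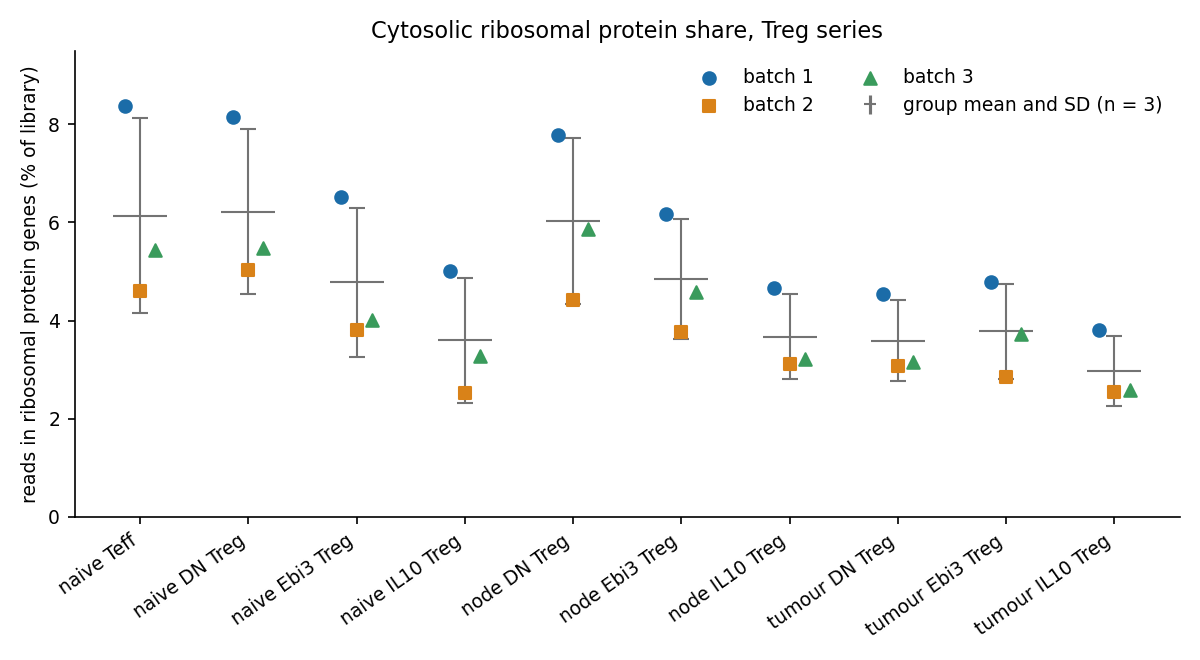
Share of each library's counts that fell in the 83 ribosomal protein genes, in percent (y axis), for the 10 groups of the Treg series (x axis). Each point is a library, coloured by batch, and the bars give the group mean and SD (n = 3). Batch 1 is highest in every group, and naive DN Tregs lie above naive IL10 Tregs in each batch (8.14 against 5.002%, 5.04 against 2.52% and 5.48 against 3.28%).

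The first comparison asks how Tregs that express IL10 differ from those that express neither cytokine, here in the naive source. Naive IL10 Tregs held less RNA of nearly every ribosomal protein than naive DN Tregs: 68 of the 80 members tested fell and 0 rose, with a median log2 fold change of -0.81, where 7.85% of the 12907 genes tested were called lower and the median of all genes was close to 0 (edgeR quasi-likelihood test, Benjamini-Hochberg adjusted p under 0.05). Summed over the family, the level within a batch was 1.76-fold lower on average (log2 -0.82 ± 0.16, SD, lower in 3 of 3 batches). By class, 27 of 30 small-subunit members fell (median -0.87), 37 of 42 large-subunit members (median -0.76), all 3 stalk proteins (median -0.80) and 1 of 5 paralogues. Without batch as a term the count was 12 here, and in the comparisons below it was 8 for IL10 against DN in the node, 9 for tumour against node in DN Tregs and 0 for each comparison of Ebi3 Tregs and each interaction. The share of all genes called without that term was not compared, so these counts do not set the family apart from other genes.

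Among the small-subunit proteins the largest fall was that of Rps19, which is needed to mature the small subunit and is mutated in Diamond-Blackfan anaemia. Rps19 stood at 2232, 914 and 1617 CPM in naive DN Tregs and at 1019, 311 and 719 in naive IL10 Tregs. Each IL10 library lay below the DN library of its batch, while the 2 ranges overlap, since batch 2 is low in both groups. The log2 fold change was -1.28 ± 0.11 (SE, adjusted p = 4.51e-09, edgeR). Rps20 and Rps18, both of the head of the small subunit, fell by 1.15 ± 0.14 and 1.12 ± 0.12. Rps6, the substrate of the S6 kinases downstream of mTORC1, was at 1017, 734 and 766 CPM in DN and at 647, 352 and 425 in IL10 Tregs, with no overlap, and fell by 0.85 ± 0.10.

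Of the large subunit, Rpl12, which sits at the base of the stalk, fell most, by 1.05 ± 0.15 (617, 511 and 408 CPM against 334, 197 and 217). Rpl5 and Rpl11, which can bind Mdm2 outside the ribosome and so stabilise p53, fell by 0.76 ± 0.12 and 0.64 ± 0.12. Rpl3, close to the site of peptide bond formation, fell by 0.65 ± 0.06, from 1401, 2083 and 1211 to 958, 1267 and 755 CPM. It was the member that departed most from the batch pattern among abundant ones, with its highest value in batch 2, where the family as a whole was lowest. The stalk protein Rplp0 went from 5214, 4299 and 3916 to 3228, 2208 and 2327 CPM, without overlap (log2 -0.80 ± 0.09), and Rplp1 and Rplp2 fell by 0.72 ± 0.13 and 0.83 ± 0.20. Among the paralogues Rpl22l1 fell with its partner Rpl22 (-0.81 ± 0.18 and -0.70 ± 0.16), whereas Rps27l, a p53-induced paralogue of Rps27, had a log2 fold change of 0.50 ± 0.20 and did not pass the test.

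In the node the same contrast gave 54 members lower and 1 higher of 80 (median -0.60), against 7.37% of all genes lower and 8.81% higher. The family sum within a batch was lower in 3 of 3 (log2 -0.70 ± 0.18, SD). Rps19 was at 2206, 729 and 1746 CPM in node DN and at 1005, 415 and 770 in node IL10 Tregs (log2 -1.04 ± 0.11), Rps7 fell by 1.02 ± 0.10, Rps20 by 0.98 ± 0.14 and Rpl10a, a protein of the exit-site stalk of the large subunit, by 0.96 ± 0.12. The member that rose was Rps27l, at 135, 38.5 and 191 CPM in DN and 282, 90.8 and 265 in IL10 Tregs (0.90 ± 0.20, adjusted p = 0.0022, edgeR). The batch 1 and batch 3 values of both groups show the difference plainly, and batch 2 shows it at a level several times lower. Without batch 1 the count was 35, and without batch 3 it was 30.

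Ebi3 Tregs showed the fall at a smaller size. In the naive source 41 of 80 members fell and 0 rose (median -0.44), against 5.45% of all genes lower, and in the node 31 fell and 1 rose (median -0.34), against 6.07% lower and 6.96% higher. The sum was lower in 3 of 3 batches in both sites (log2 -0.39 ± 0.07 and -0.31 ± 0.07, SD). Among the members called, Rps19 was again the largest of the naive falls (1470, 591 and 920 CPM in Ebi3 Tregs, log2 -0.75 ± 0.11). Rpl12 (-0.69 ± 0.15) and Rps24 (-0.69 ± 0.15) fell as well. In the node Rps28 (-0.72 ± 0.23), Rps19 (-0.64 ± 0.11), Rps24 (-0.60 ± 0.15) and Rps7 (-0.60 ± 0.10) led, and Rps27l rose (276, 88.6 and 286 CPM, 0.85 ± 0.20). These comparisons share the DN libraries with those of IL10 Tregs. The naive count was 14 without batch 3, and the node count 10 without batch 1 and 6 without batch 3.

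Genes of cell division moved the other way in these sorts. Of 20 proliferation genes, 14 rose in naive IL10 Tregs, 13 in node IL10, 20 in naive Ebi3 and 18 in node Ebi3 Tregs, each against DN. Their summed level averaged 1222 CPM in naive DN, 2905 in naive IL10 and 5077 in naive Ebi3 Tregs. Myeloid markers summed to 1.07 to 4.92 CPM in naive DN and 8.90 to 33.5 in naive IL10 Tregs, and 1 of 4 tested was called higher in IL10 Tregs in both sites. In node Ebi3 Tregs 1 library stood apart with 205 CPM of myeloid markers. B cell markers summed to 31.1 to 74.0 and 54.1 to 75.3 CPM, with 0 of 4 called. The part of proliferation and of these markers in the fall was not tested.

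The second question is how Tregs of the tumour differ from those of the node. In DN Tregs 52 of 80 members fell and 1 rose (median -0.51), against 10.5% of all genes lower and 12.9% higher. The sum was lower in 3 of 3 batches (log2 -0.73 ± 0.19, SD, or 1.66-fold on average). Of the small subunit 22 of 30 fell, of the large subunit 26 of 42, and all 3 stalk proteins. Rps7, whose loss also causes Diamond-Blackfan anaemia, was at 1149, 550 and 762 CPM in the node and 512, 299 and 325 in the tumour, every tumour library below every node library (log2 -0.97 ± 0.10). Rps19 went from 2206, 729 and 1746 to 1004, 403 and 762 CPM (-0.95 ± 0.11). Rps29 and Rpl10a fell by 0.90 ± 0.25 and 0.90 ± 0.12.

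Several abundant members fell without any overlap in that comparison. Rpl4, which lines the exit tunnel, was at 4974, 5180 and 4090 CPM in node and at 2664, 2667 and 1983 in tumour DN Tregs (log2 -0.84 ± 0.08). Rplp0 went from 5245, 3952 and 3962 to 2957, 2803 and 2256 CPM (-0.59 ± 0.09), and Rpl3 from 1550, 2124 and 1239 to 885, 1183 and 703 (-0.70 ± 0.06). In these 3 genes the tumour libraries of all batches are the low ones. Rps6 (-0.53 ± 0.10), Rpl5 (-0.62 ± 0.12), Rpl11 (-0.47 ± 0.12), Rplp1 (-0.69 ± 0.13) and Rplp2 (-0.61 ± 0.20) fell too. Rpl22 (-0.39) and Rpl22l1 (-0.40) did not pass. Rpl7l1, a paralogue of Rpl7 that serves ribosome assembly, fell from 164, 137 and 167 to 85.1, 90.2 and 107 CPM (-0.60 ± 0.11). Rps27l rose from 135, 38.5 and 191 to 212, 88.1 and 230 CPM (0.81 ± 0.20, adjusted p = 0.0037, edgeR). Without batch 1 the count of members called was 35, and without batch 3 it was 29. In these 2 groups 11 of 20 proliferation genes rose, from a summed mean of 1569.7 CPM in the node to 3090.2 in the tumour. Of 4 tested markers of pigment cells 2 rose and 1 fell, and 0 of 4 myeloid and 0 of 4 B cell markers passed. Their part in the fall was not tested.

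In IL10 and Ebi3 Tregs the step to the tumour was small. In the node the family took 3.67 and 4.85% of their libraries on average. Node DN Tregs were at 6.03% and tumour DN Tregs at 3.59%. Whether the level in the node bears on the size of the step was not tested. One member of 80 fell in IL10 Tregs and 6 in Ebi3 Tregs (medians -0.17 and -0.16), against 3.77 and 4.01% of all genes called lower. Rpl7l1 was the member in IL10 Tregs (143, 115 and 116 CPM in node, 74.4, 81.5 and 80.4 in tumour, log2 -0.49 ± 0.12). Leaving out batch 1, 2 or 3 gave 0, 0 and 1 members in IL10 Tregs and 0 in Ebi3 Tregs each time. Among the members called in Ebi3 Tregs, Rpl7l1 (-0.42 ± 0.11), Rps19 (-0.36 ± 0.11), Rps7 (-0.33 ± 0.10) and Rpl13 (-0.33 ± 0.09) had the largest falls. The sum was nonetheless lower in 3 of 3 batches in both (log2 -0.30 ± 0.01 and -0.36 ± 0.05, SD). These small differences depend on how libraries are scaled: with library totals in place of TMM factors the counts became 24 and 31, while the median of all genes moved from -0.02 to -0.18 and from -0.04 to -0.20 and that of the members to -0.34 and -0.33. In DN Tregs the same change moved the median of all genes from 0.01 to -0.10.

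The difference between the tumour-to-node changes was tested as an interaction. Between IL10 and DN Tregs it was called for 16 members, 15 with a less negative change in IL10 Tregs, against 1.98% of all genes in that direction and 2.5% in the other, with a median difference of 0.33. Rps7 and Rps19 differed by 0.80 ± 0.14 and 0.80 ± 0.16, Rpl8, at the catalytic centre of the large subunit, by 0.75 ± 0.17 and Rpl3 by 0.73 ± 0.09, while Rps27l differed by -1.02 ± 0.28 (adjusted p = 0.0333, edgeR). Between Ebi3 and DN Tregs 7 members were called, all with a less negative change in Ebi3 Tregs, against 0.643% of all genes: Rps7 (0.64 ± 0.14), Rpl3 (0.57 ± 0.09), Rpl4 (0.54 ± 0.11) and Rps3a1 (0.51 ± 0.12) led. Both interactions share the DN libraries. The first count was 6 without batch 1 and 2 without batch 3, and the second 2, 1 and 0 without batch 1, 2 and 3.

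Within the tumour the sorts differed little. Of 80 members 0 passed between IL10 and DN Tregs by edgeR and 2 by DESeq2, and by edgeR 0.837% of all genes were called. By edgeR 25 members had an unadjusted p under 0.05, as had 1202 of all 12907 genes. The median was -0.23, and the sum was lower in 3 of 3 batches (log2 -0.27 ± 0.01, SD). Between Ebi3 and DN Tregs 1 member rose, Rpl3 (995, 1495 and 884 against 885, 1183 and 703 CPM, 0.26 ± 0.06, adjusted p = 0.0499, edgeR), against 0.0852% of all genes, and the sum was lower in 1 batch and higher in 2. The call was lost without any one batch. IL10 Tregs lay below Ebi3 Tregs in 9 members (median -0.29), against 1.07% of all genes, led by Rpl15 (-0.55 ± 0.12), Rps2 (-0.51 ± 0.12), Rpl10 (-0.46 ± 0.12) and Rpl4 (-0.36 ± 0.08). Without a batch that last count was 2, 2 and 0.

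Between the node and the naive source no member was called. By edgeR 0 of 80 members passed in DN, IL10 and Ebi3 Tregs, and DESeq2 also called 0. An unadjusted p under 0.05 by edgeR was found for 0, 2 and 1 members and for 959, 763 and 613 of all 12907 genes. By adjusted p 0.0852, 0.0542 and 0.00775% of all genes were called. The medians were -0.05, 0.12 and 0.05. Naive DN Tregs and naive Teff were close as well: 5 members rose and 0 fell (median 0.10), against 8.79% of all genes higher. Among these 5 called members Rps27l was the largest, at 192, 40.4 and 130 CPM in DN Tregs and 93.4, 15.9 and 64.4 in Teff (1.14 ± 0.20, adjusted p = 0.0002, edgeR), ahead of Rpl36 (0.53 ± 0.18), Rps18 (0.42 ± 0.12) and Rpl15 (0.40 ± 0.12). Leaving out batch 1, 2 or 3 gave 1, 3 and 2 members, and leaving out the batch term 0.

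**Figure D2:**
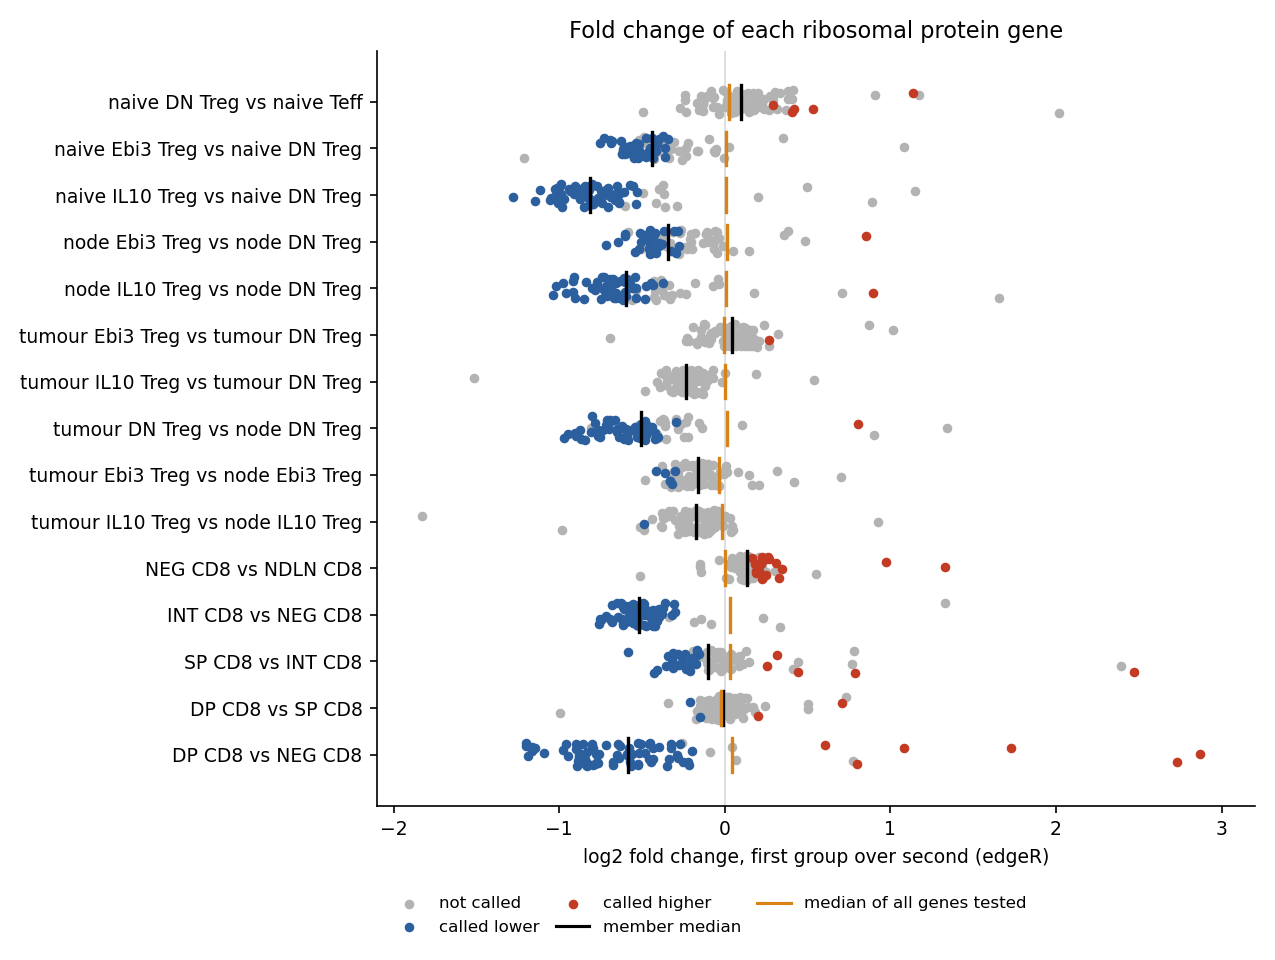
Log2 fold change of each ribosomal protein gene (x axis, edgeR) in 15 comparisons (y axis), first group over second. Blue and red points passed an adjusted p of 0.05, black bars mark the median of the members and orange bars that of all genes. The clouds lie left of all genes in naive IL10 against DN Tregs (median -0.81), tumour against node DN Tregs (-0.51), INT against NEG (-0.52) and DP against NEG (-0.59), and 6 called members, 3 of them paralogues, lie to the right of 0 in the last.

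In the CD8 series the family took 4.43 to 14.5% of a library. It was highest in node and NEG cells and lower in every population with PD-1. The group means were 11.9% ± 3.88 in NEG and 11.5% ± 3.72 in NDLN libraries of Ebi3L (SD, n = 3), 9.99% ± 3.79 and 9.59% ± 4.17 of yfp (n = 3), 8.58% ± 2.34 and 8.81% ± 0.943 of Il10 (n = 2) and 7.997% ± 1.39 and 7.14% ± 0.981 of DKO (n = 4). In DP cells they were 8.08% ± 3.06, 6.46% ± 2.81, 5.07% ± 0.432 and 4.99% ± 0.567 in the same order. Batch 3 held only yfp and Ebi3L libraries, which is where the wide SDs and the high means of those genotypes lie. Within a source the order was clear: INT was below NEG in 12 of 12 sources (log2 of the sum -0.46 ± 0.19, SD, from -0.72 to -0.13) and DP below NEG in 12 of 12 (-0.65 ± 0.13, from -0.93 to -0.51).

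**Figure D3:**
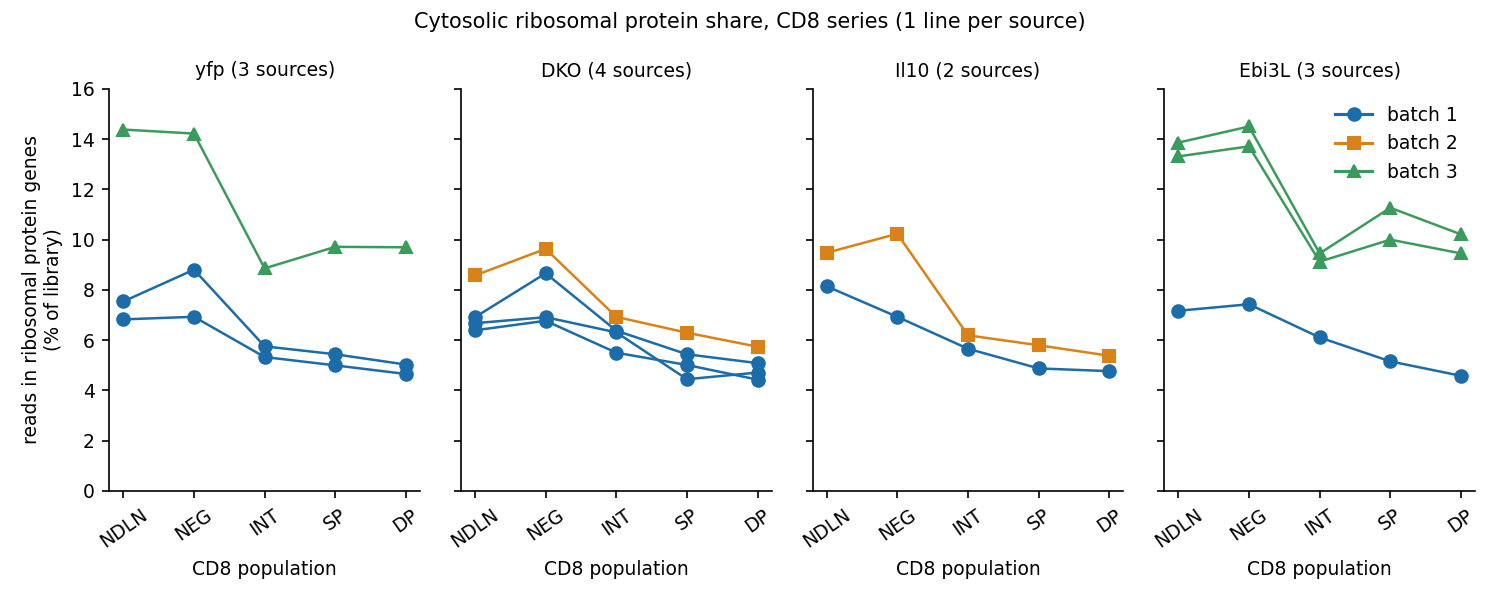
Share of each library's counts in the 83 ribosomal protein genes, in percent (y axis), across the 5 CD8 populations (x axis), 1 panel per genotype. Each line joins the libraries of a source, coloured by batch. All 12 lines drop from NEG to INT, and the 3 lines of batch 3 lie highest and rise again from INT to SP.

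The comparison of PD-1 intermediate with PD-1 negative tumour cells asks what changes at the first step towards exhaustion. Over the 4 genotypes 73 of 82 members fell and 0 rose (median -0.52), against 4.62% of the 14734 genes tested and a median of all genes of 0.03. By CPM of library totals 70 of 83 members were lower in each of the 12 sources. The share of all genes lower in every source was not counted. The fall took in 29 of 30 small-subunit members (median -0.54), 40 of 43 large-subunit members (median -0.48), all 3 stalk proteins (-0.60) and 1 paralogue, Rpl22l1. Rps19 ran from 1509 through a median of 2161 to 4718 CPM in the 12 NEG libraries and from 1036 through 1331 to 2497 in INT. The ranges overlap across batches, yet INT was the lower library in all 12 sources, by 0.24 to 1.26 on the log2 scale (edgeR log2 fold change -0.75 ± 0.08, SE).

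The other leading falls from NEG to INT were Rps29 (-0.76 ± 0.14), Rpl36a (-0.76 ± 0.10) and Rps28 (-0.72 ± 0.10), small proteins of both subunits. Rps6 fell by 0.61 ± 0.06 and Rpl3 by 0.52 ± 0.05. Of the stalk, Rplp0 averaged 4505 CPM ± 807 (SD, n = 12) in NEG and 3295 ± 349 in INT (log2 -0.49 ± 0.05), and Rplp1 and Rplp2 fell by 0.65 ± 0.09 and 0.60 ± 0.10. Rpl5 (-0.53 ± 0.07), Rpl11 (-0.45 ± 0.06), Rpl22 (-0.41 ± 0.07) and Rpl39, at the mouth of the exit tunnel (-0.63 ± 0.10), fell as well. Rpl7l1 (-0.08) and Rps27l (0.23 ± 0.13) did not pass the test. In each genotype alone the median was -0.59 in yfp, -0.37 in DKO, -0.57 in Il10 and -0.51 in Ebi3L, with 48, 0, 18 and 33 members called lower among 73, 0, 31 and 71 of all 14734 genes. With the source as replicate block the counts were 64, 14, 45 and 54 members among 105, 17, 83 and 116 genes.

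Between the ends of the series, DP against NEG, 71 of 82 members fell and 6 rose (median -0.59), against 25.1% of all genes lower and 28.8% higher. The small subunit and the stalk had the lower medians (-0.78 with 28 of 30 called lower, and -0.84 with 3 of 3) and the large subunit a median of -0.52, with 39 of 43 lower and 3 higher. In each genotype alone the median was -0.63 in yfp, -0.62 in DKO, -0.77 in Il10 and -0.44 in Ebi3L, and 62, 65, 63 and 50 members fell among 1910, 2381, 1756 and 2303 of all 14734 genes. Rps24, another protein mutated in Diamond-Blackfan anaemia, ran from 572 through 826 to 1434 CPM in NEG and from 254 through 319 to 722 in DP, and was lower in 12 of 12 sources (edgeR log2 -1.20 ± 0.08). Rps19 was at 703, 831 and 2603 CPM in DP (lowest, median, highest), lower in 12 of 12 (-1.19 ± 0.08).

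The members of DP cells spread widely around that median. Rplp1 fell by 1.09 ± 0.09 and Rplp2 by 0.84 ± 0.10, while Rplp0, the scaffold that carries both, fell by 0.46 ± 0.05. Rps6 fell by 0.84 ± 0.06, Rpl11 by 0.56 ± 0.06 and Rpl5 by 0.20 ± 0.07. Rpl3 had groups that did not overlap, with 2846 to 3840 CPM in NEG and 2088 to 2616 in DP (-0.48 ± 0.05). Rps2 (0.04), Rps26 (0.07) and Rpl7a (-0.09), 3 abundant proteins of both subunits, did not pass, and Rps2 and Rps26 were each lower in 5 sources and higher in 7. Rps27 (-1.20 ± 0.23) fell as far as Rps24, at a level of only 11.5 CPM ± 4.76 in NEG and 5.17 ± 2.17 in DP.

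The steps from INT to SP and from SP to DP moved the family less, and with exceptions by batch. From INT to SP 26 of 82 members fell and 5 rose (median -0.10), against 13.1% of all genes lower and 13.8% higher. Rps19 (-0.41 ± 0.08), Rps24 (-0.35 ± 0.08) and Rps27 (-0.59 ± 0.23) fell, and Rpl39l (2.47 ± 0.77), Rps27l (0.79 ± 0.13), Rpl7l1 (0.44 ± 0.10) and Rps26, at the exit of the mRNA channel (0.31 ± 0.09), rose. The family sum was lower in 7 of 7 sources of batch 1 and 2 of 2 of batch 2, and higher in all 3 of batch 3, by 0.13 to 0.25 on the log2 scale. In a fit of the yfp libraries alone the members called were 2 higher and 0 lower of 80, with a median of -0.04. In the fit of all libraries yfp had 1 higher and 0 lower, among 170 genes higher and 300 lower of all 14734. From SP to DP 2 members rose and 2 fell (median -0.01), against 8.61% of all genes higher and 9.85% lower: Rps27l (0.71 ± 0.13) and Rps2 (0.20 ± 0.07) rose, and Rpl19 (-0.15 ± 0.06) was among those that fell. Without batch 3 that last count was 0, and leaving out single sources gave 1 to 6.

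Between NEG cells of the tumour and CD8 T cells of the node, 19 of 82 members rose and 0 fell (median 0.13), against 9.21% of all genes higher, and the sum was higher in 10 of 12 sources (log2 0.07 ± 0.14, SD). Among the members called, Rps4y2 (1.33 ± 0.44), Rps27 (0.97 ± 0.23), Rps12 (0.35 ± 0.09) and Rpl24, which bridges the subunits (0.33 ± 0.06), rose most. Rps4y2 averaged 4.28 CPM ± 3.54 in NDLN and 10.19 ± 5.78 in NEG, so it is a minor transcript beside Rpl24, at 394 CPM ± 156 and 466 ± 163. The count was 3 without the libraries of Il10 replicate 1, 10 without those of yfp replicate 2, 11 without those of Ebi3L replicate 3 and 2 without batch 3. Between these populations 3 of 4 Treg markers, 2 of 4 NK cell markers and 1 of 5 myeloid markers rose and both CD8 markers fell, and their part in the rise was not tested.

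Genes of cell division rose along the same populations. Their summed level was 709.97 to 3933 CPM in NEG, 1783 to 6693 in INT and 4821 to 10792 in DP libraries, and 17 of 20 rose from NEG to INT and 20 of 20 from NEG to DP. B cell markers summed to 21.3 to 76.4 CPM in NEG, 32.1 to 65.0 in INT and 0 to 22.3 in DP, and 2 of 3 tested fell from NEG to DP. Of 5 myeloid markers 1 rose from NEG to INT, and 2 rose and 1 fell from NEG to DP. Treg markers summed to 13.97 to 285 CPM in NEG, 143 to 469 in INT and 297 to 849 in DP, and 2 of 4 rose from NEG to INT and 3 of 4 from NEG to DP. NK cell markers summed to 58.8 to 234 CPM in NEG and 26.9 to 316 in DP, and 2 of 4 fell. Of 4 pigment cell markers 1 fell from NEG to INT and from NEG to DP. The part of these in the fall was not tested.

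The knockouts in Tregs were compared with yfp within each CD8 population, and no member passed in any. By edgeR 0 of 82 members were called in each of the 15 comparisons, and DESeq2 called 0 as well. For DKO in NDLN, NEG, INT, SP and DP the medians were -0.15, -0.09, 0.13, -0.07 and -0.10. The unadjusted p was under 0.05 in 8, 1, 11, 4 and 4 of 82 members. Of all 14734 genes it was under 0.05 in 855, 789, 761, 879 and 957. By adjusted p 0, 0, 0.0136, 0.0339 and 0.238% of all genes were called. For Il10 the medians were 0.12, -0.03, -0.03, -0.09 and -0.16. At an unadjusted p under 0.05 were 0, 0, 1, 6 and 7 members. Of all genes 853, 1676, 674, 644 and 388 were. By adjusted p 0.00679, 0.163, 0, 0.0204 and 0% of all genes were called. For Ebi3L the medians were -0.08, -0.16, -0.09, 0.03 and 0.02. At an unadjusted p under 0.05 were 0, 11, 0, 0 and 0 members. Of all genes 803, 1034, 676, 764 and 921 were. By adjusted p 0.00679, 0, 0, 0.0136 and 0.0475% of all genes were called.

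Within a batch the genotypes had like shares in NEG and DP cells. In batch 1 the family took 6.93 to 8.81% of yfp, 6.77 to 8.66% of DKO, 6.93% of Il10 and 7.43% of Ebi3L NEG libraries, and 4.65 to 5.03, 4.43 to 5.09, 4.77 and 4.58% of DP libraries. Il10 and Ebi3L had 1 library each per population in that batch. In batch 3 the NEG shares were 14.2% in yfp, with 1 library, and 13.7 to 14.5% in Ebi3L. NDLN shares were less alike: in batch 1 those of DKO, at 6.39 to 6.91%, lay below the 8.15% of Il10. In batch 2 they were 8.58% in DKO and 9.48% in Il10, with 1 library each. The DP against NEG difference was also compared between genotypes: 0 members were called by edgeR or DESeq2 for DKO, Il10 and Ebi3L against yfp. The medians were -0.01, -0.12 and 0.16. By edgeR 0, 0 and 1 members had an unadjusted p under 0.05, and so did 764, 980 and 825 of all 14734 genes. By adjusted p 0.00679, 0 and 0.0136% of all genes were called. With 2 to 4 libraries per genotype, spread over batches, small differences could go undetected.

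Comparisons that share no libraries with each other drew largely on one set of members. Of the 80 members tested in both series, 51 fell in naive IL10 against DN Tregs, in tumour against node DN Tregs and in INT against NEG CD8 T cells, 17 in 2 of these, 6 in 1 and 6 in none. The 6 were Rpl30, Rpl34, Rpl39l, Rps27, Rps27l and Rps4y2. All 68 members that fell in naive IL10 Tregs fell from NEG to INT (100% of the first list and 93.2% of the second), and 51 of them in tumour DN Tregs (75% and 98.1%). Since most members fell in each comparison, a large overlap follows from the counts.

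Some paralogues departed from the rest. Of 6 tested from NEG to DP, 3 rose, 1 fell, and Rpl3l and Rps4y2 were not called. Rps27l (ENSMUSG00000036781, chr9:66946086-66949516, plus strand) ran from 34.1 through 62.1 to 142 CPM in NEG and from 134 through 181 to 474 in DP, and was higher in DP in 12 of 12 sources (edgeR log2 1.73 ± 0.14, adjusted p = 6.05e-15). It increased at INT to SP and again at SP to DP, while the ranges of neighbouring populations overlapped. Rpl7l1 averaged 102.5 CPM ± 23.6 in NEG and 155 ± 21.8 in DP (0.60 ± 0.10), higher in 12 of 12, while Rpl7 fell by 0.35 ± 0.05. Rpl39l, known from testis, averaged 1.47 CPM ± 1.59 in NEG with 1 of 12 libraries at 0, and 6.65 ± 6.45 in DP (2.87 ± 0.78), while Rpl39 went from 251 ± 77.5 to 177 ± 65.2 (-0.56 ± 0.10). Rpl22l1 was the paralogue that fell, together with Rpl22, which T cells need for their development (-0.43 ± 0.10 and -0.52 ± 0.07). In Tregs Rpl7l1 was called lower from node to tumour in the DN, IL10 and Ebi3 sorts.

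**Figure D4:**
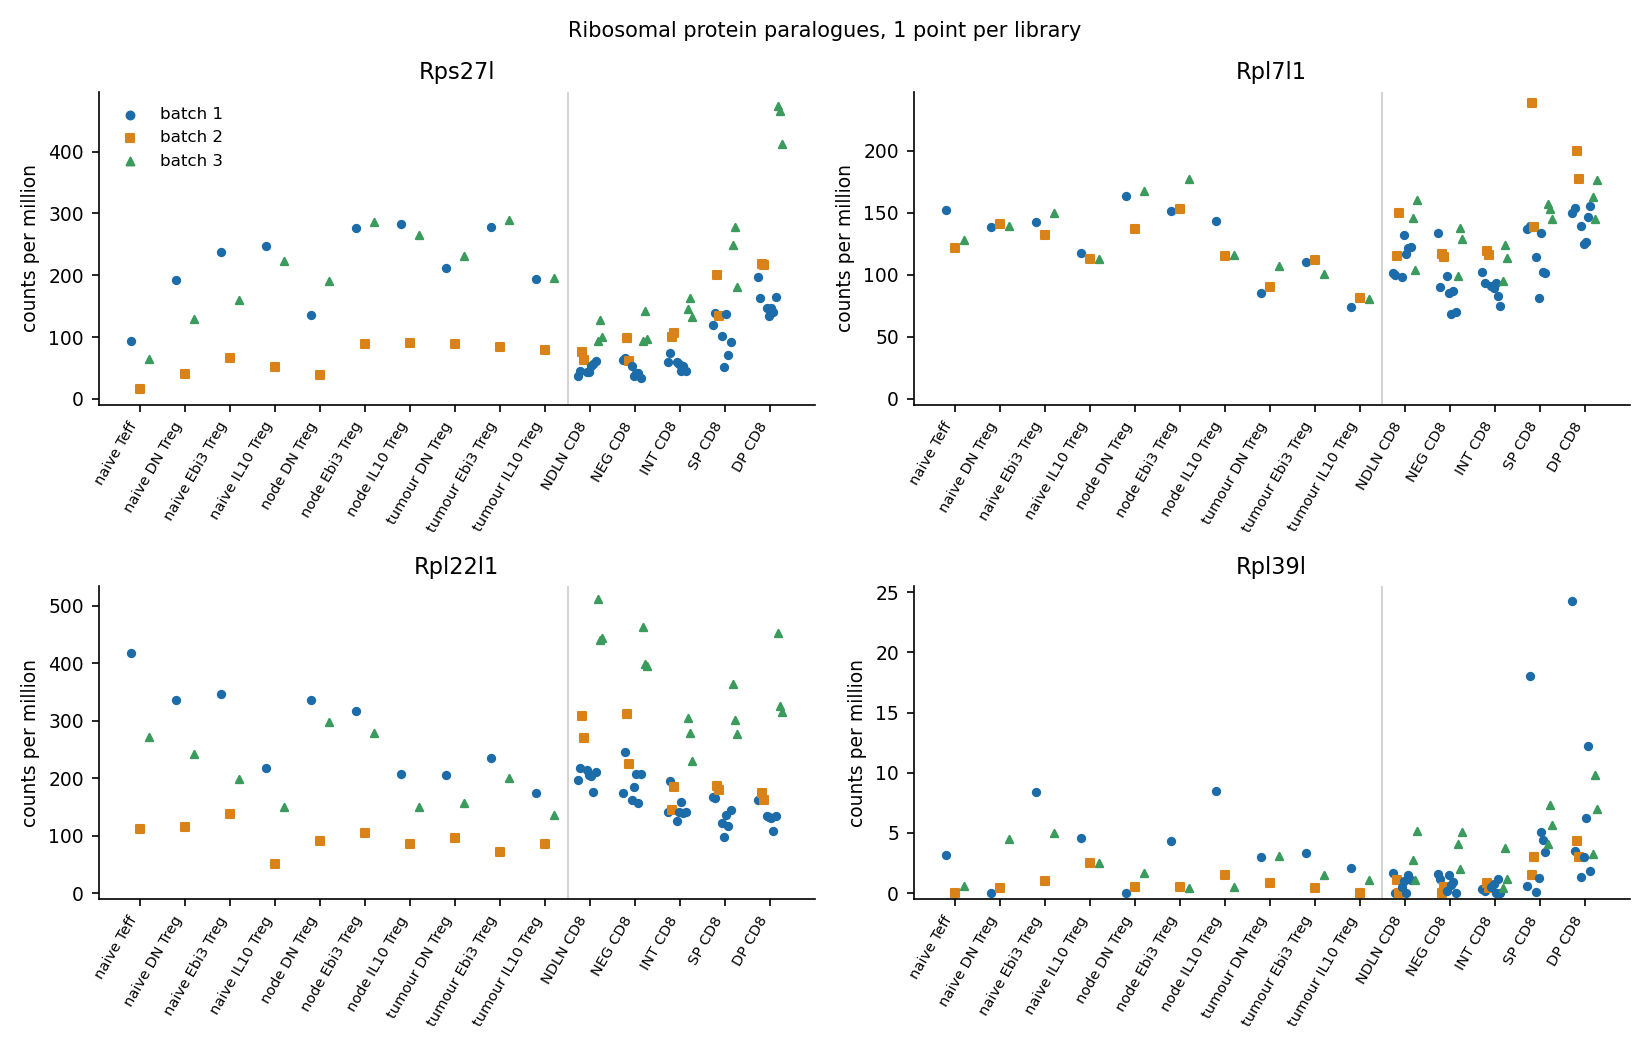
Level of Rps27l, Rpl7l1, Rpl22l1 and Rpl39l in CPM (y axis), 1 panel each, in the 10 Treg groups and the 5 CD8 populations (x axis). Each point is a library. Rps27l spreads over 34.1 to 142 in NEG and 134 to 474 in DP, and Rpl39l is near 0 in most groups and reaches 24.3 in DP.

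Other members that rose from NEG to DP were counted at very low levels. Rpl30 averaged 1.61 CPM ± 0.72 in NEG and 3.23 ± 1.29 in DP (log2 1.08 ± 0.32), Rpl34 had a log2 fold change of 0.80 ± 0.23, and Rpl26 was at 0 in 10 of 12 NEG libraries and averaged 0.0682 CPM in DP, so its fitted fold change is no measure of size. Such ribosomal proteins are abundant in most cells, and many have near-identical processed pseudogenes. How the authors' counting assigned reads that fit several copies is not stated by any source used here. The levels of Rpl26, Rpl30, Rpl34, Rps27 and other members with copies are therefore uncertain, and this was not tested. Rpl26 was at 0 in 30 of 30 Treg libraries and 33 of 60 CD8 libraries. Rpl10l was at 0 in 30 and 55, and Rpl3l, of striated muscle, in 27 and 49.

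Most members moved together from library to library. Across the 60 CD8 libraries each member's level was correlated with the sum of the other members. The median was 0.95 over the 83 members, and 70 exceeded 0.8. Across the 30 Treg libraries the median was 0.88 over 81 members, and 60 exceeded 0.8. The libraries share batches, so this is a description. The lowest values in CD8 libraries were those of Rpl3l (-0.12), Rpl26 (-0.11), Rpl39l (0.01), Rpl7l1 (0.05), Rpl10l (0.12) and Rps27l (0.13), and Rpl3 stood at 0.37 in the Treg series. Per kilobase of transcript, Rplp0 at 2512 CPM per kb, Rpl4 at 2213 and Rpl32 at 2200 were among the most abundant members of the Treg series, and in the CD8 series Rpl32 at 3960 was among the highest. Rps19 (ENSMUSG00000040952, chr7:24884371-24889806, plus strand) was at 1576 and 2830 CPM per kb in the 2 series.

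The rest of the translation machinery went with the family in some comparisons and against it in others. In naive IL10 against DN Tregs 20 of 40 ribosome biogenesis genes fell and 0 rose (median -0.58), among them the assembly factors Ltv1 (-1.17 ± 0.21) and Nop56 (-1.12 ± 0.15) and the RNA polymerase I subunit Polr1b (-1.06 ± 0.31). Of 19 elongation factors and other TOP genes 9 fell and 1 rose, with Eef1b2 (-0.82 ± 0.10) and Gas5 (-0.69 ± 0.11) falling, and of 23 initiation factors 7 fell. Of 76 mitochondrial ribosomal proteins 6 fell and 2 rose. Myc fell by 1.84 ± 0.17 and Larp1 by 0.78 ± 0.18, while Eif4ebp1, the mTORC1 target that blocks initiation, rose (1.22 ± 0.22). The 19 genes listed for mTORC1 and TOP control together summed to 1020 to 1319 CPM across all libraries of the Treg series. How many of these 19 were called in each direction is not given here, so the genes named do not stand for the list. From node to tumour in DN Tregs 22 biogenesis genes fell (median -0.58), led by Utp20 (-1.94 ± 0.35), Myc fell by 1.19 ± 0.17, and 7 mitochondrial ribosomal proteins rose and 7 fell.

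In CD8 T cells the lists parted. From NEG to INT 11 of 40 biogenesis genes (median -0.23) and 12 of 19 elongation and TOP genes (median -0.24) fell with the family, Myc fell by 0.76 ± 0.12 and Larp1 by 0.40 ± 0.09, and of 76 mitochondrial ribosomal proteins 4 fell and 1 rose. From NEG to DP, where 71 cytosolic ribosomal proteins fell, 64 of 76 mitochondrial ribosomal proteins rose and 4 fell (median 0.53), 22 biogenesis genes rose and 2 fell (median 0.32; Nhp2 0.96 ± 0.11, Gar1 0.77 ± 0.15, Bysl 0.70 ± 0.13) and 16 of 23 initiation factors rose and 3 fell (median 0.42; Eif1ax 1.36 ± 0.11, Eif4e 1.24 ± 0.10). Elongation and TOP genes split, with 7 higher and 8 lower, and among the latter were Tpt1 (-1.01 ± 0.08) and Gas5 (-0.62 ± 0.08). Of 5 ribosomal protein genes outside the symbol rule 4 fell with the family, among them Fau, a fusion of a ubiquitin-like protein to a ribosomal protein, by 0.80 ± 0.07. Myc fell by 0.61 ± 0.12 and Rptor, the scaffold of mTORC1, by 1.75 ± 0.18. The 19 genes listed for mTORC1 and TOP control together summed to 946 to 1485 CPM in NEG and 861 to 1385 in DP libraries, ranges that overlap. The number of these 19 called in each direction is not given here either, so the genes named do not stand for the list.

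**Figure D5:**
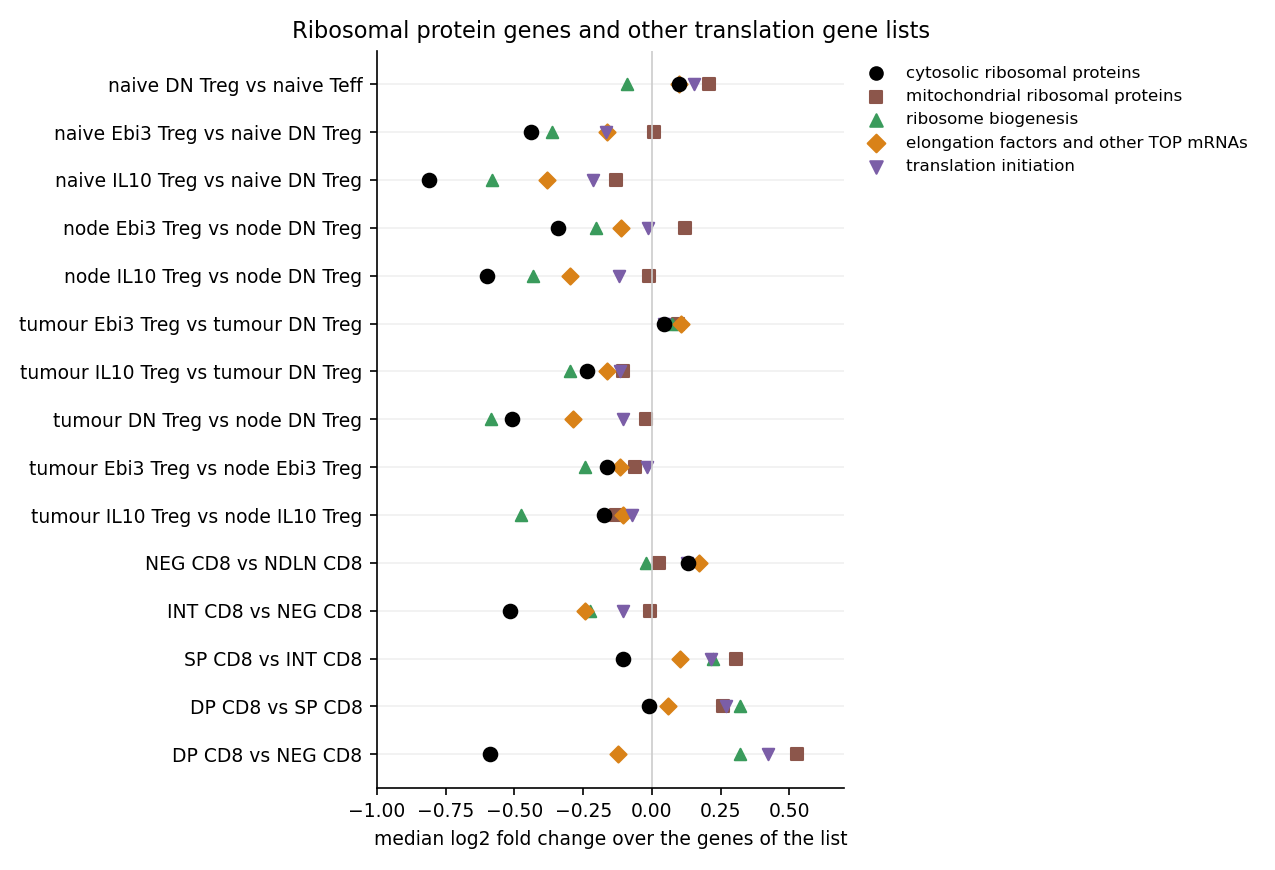
Median log2 fold change (x axis) of the cytosolic ribosomal proteins and of the other gene lists of the translation machinery in 15 comparisons (y axis), first group over second. Cytosolic and mitochondrial ribosomal proteins lie on opposite sides of 0 in DP against NEG (-0.59 and 0.53), while biogenesis genes lie with the cytosolic family in naive IL10 against DN Tregs (-0.58 and -0.81).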

How the data were processed

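The deposited count tables hold raw read counts per gene, and a second pair of deposited tables holds log2 expression values made by the authors. STAR, featureCounts of Subread, limma and build mm10 are named, without versions, per the submitters' processing notes. Amplified cDNA was made with SMART-Seq kits and libraries with Nextera XT from double-sorted cells, per the labels' protocols. How reads that fit several genes were counted is not given in the sources used here.

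From the counts, levels were computed as CPM of library totals. Tests used edgeR 4.0.16 in R 4.3.3 (TMM scaling, filterByExpr, robust quasi-likelihood fit, Benjamini-Hochberg adjustment over all genes tested, threshold 0.05). The Treg series was fitted on its 30 libraries by group with batch as a block, and the CD8 series on its 60 libraries by 20 groups with batch, averaging the 4 genotypes for comparisons of populations. In all 39 comparisons were made. Fold changes are log2, with their standard error. In the Treg series the replicate number is the batch per the labels, and deviations from group means correlated above 0.1 in all 135 same-batch pairs (0.114 to 0.668). No pair of replicates agreed within sampling noise (95 pairs). The scripts were tested on simulated data. Alternatives were DESeq2 1.42.0, limma 3.58.1 on the deposited log2 values, other scalings, no filter, no batch block, a source block, subsets of libraries and leaving out replicates.

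The members and lists were chosen with earlier results of these data known. Named are, per comparison, the 4 members with the largest change among those called in each direction, the paralogue pairs, the stalk proteins, Rpl5, Rpl11, Rps6 and Rps19, and up to 4 called genes of each list. Other genes the text names, and the per-kilobase ranking, were chosen after their values were seen. The values of some genes that this rule names are not reported here.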

Additional observations from a re-analysis of the deposited data

Results flagged for a closer look

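The change from node to tumour differed between kinds of Treg by a test of the difference itself. For IL10 against DN Tregs 16 members differed, with differences on the log2 scale of 0.80 for Rps7, 0.80 for Rps19, 0.75 for Rpl8, 0.73 for Rpl3 and -1.02 for Rps27l (edgeR). For Ebi3 against DN Tregs 7 members differed, with 0.64 for Rps7, 0.57 for Rpl3, 0.54 for Rpl4 and 0.51 for Rps3a1. Rps27l rose in DN Tregs, and the other members named fell more in them.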

How the results depend on the processing

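Counts below are members called, in either direction. These counts, and those above that leave out a batch or a source, come without the share of all genes called in the same setting. A change in them is therefore not a result about the family alone. Without the batch term in the Treg series (no replicate block), tumour against node gave 9 in DN and 0 in Ebi3 Tregs, IL10 against DN gave 12 naive and 8 node, Ebi3 against DN gave 0 naive, 0 node and 0 tumour, IL10 against Ebi3 in tumour 0, DN against Teff 0, and the IL10 and Ebi3 site differences 0 and 0. DESeq2 gave 10 for DN against Teff, 2 and 17 for tumour IL10 against DN and Ebi3, 13 for the Ebi3 site difference and 7 for DP against SP. DESeq2 size factors in edgeR gave 3 for DN against Teff, no filter 3, and scaling without the members 2. No filter gave 0 for tumour Ebi3 against DN. Library totals gave 24 and 31 for tumour against node in IL10 and Ebi3 Tregs, 2 and 16 for tumour IL10 against DN and Ebi3, 7 for NEG against NDLN and 9 for DP against SP. The deposited log2 values with limma gave 31, 34, 3, 20, 3 and 34 for the same. The yfp libraries alone gave 0 for NEG against NDLN, 25 for INT against NEG, 2 for SP against INT (reversed, both higher) and 0 for DP against SP. Without batch 3, an alternative added after seeing the data, NEG against NDLN gave 2 and DP against SP 0.

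Leaving out a batch gave 1 to 3 for DN against Teff, 51 to 66 and 30 to 57 for IL10 against DN in the naive source and node, 14 to 33 and 6 to 26 for Ebi3 against DN, 29 to 57, 0 to 1 and 0 to 0 for tumour against node in DN, IL10 and Ebi3, 0 to 0 for tumour Ebi3 against DN, 0 to 2 for tumour IL10 against Ebi3, and 2 to 17 and 0 to 2 for the IL10 and Ebi3 site differences. Leaving out a CD8 source gave 72 to 77 for DP against NEG, 71 to 73 for INT against NEG, 22 to 30 for SP against INT, 1 to 6 for DP against SP and 3 to 18 for NEG against NDLN. Libraries of a CD8 source share a set name and a batch, and whether they share animals is not stated. In deviations from group means 101 of 120 same-source pairs correlated above 0.1. Among pairs from different sources of a genotype 49 of 260 did so. With the source as replicate block DP against SP gave 7. The 74 named values were refitted in 1042 combinations of a value and a setting. They kept their direction in all of these and were called in 832, and 8 of the 74 were called in every setting run for them. Causes were not tested. Rpl26, Rpl10l and Rpl3l were counted near 0, where few counts limit the precision.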
